A study of Mus musculus with 8 samples.

Results

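In Apc-mutated mouse intestinal organoids, 163 genes had a probe that was undetected on most arrays of TGF-beta-treated samples and detected on every array of untreated samples. They were selected on measured values: a probe with a single gene symbol had a detection p-value under 0.05 on all 4 untreated arrays and 0.05 or above on at least 3 of the 4 TGF-beta arrays. The detection p-value asks whether a bead's signal exceeds that of negative control beads on the same array. Where several probes of a gene met this rule, the one with the highest mean untreated signal was kept, and 5 genes were left out by name, of which 3 met the rule. The 163 genes compare with 7855 genes detected by at least 1 probe on all 4 untreated arrays (2.08 per 100) and 19057 genes with a probe in the series. Because the selection used the contrast between TGF-beta and untreated organoids, the treatment differences of these genes are given as a description, without a test.

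Total RNA from 8 samples was hybridised to Illumina mouse bead arrays, 1 array each. All samples share, per the labels, a C57Bl background, donor mice aged 3 to 4 months, a mutated Apc, and tamoxifen followed by removal of the growth factors from the medium. In 4 samples this was followed by 18 h with 3 ng/ml of TGF-beta, and the 4 untreated samples had none. Both groups are numbered 1 to 4, and nothing states that the samples of a group were separate cultures or animals, so p-values measure only the spread between these samples. The driver that tamoxifen acts on and the Apc allele are not named in the labels.

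TGF-beta is a secreted ligand whose receptor kinases phosphorylate Smad2 and Smad3, which enter the nucleus with Smad4 and change transcription. In gut epithelium it is best known for stopping cell division. Apc holds beta-catenin in check, so that epithelium with a mutated Apc keeps Wnt signalling on and can grow without added Wnt agonists. Probes that drop out of detection are for the most part those whose signal was already low. A bright probe has to fall a long way to reach the negative controls.

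Normalized levels are log2 signals, and differences are TGF-beta minus untreated on that scale. Standard errors (SE) are taken from limma fitted on group alone, so they do not use the sample numbers as pairs. The organoids carried epithelial transcripts: Cdh1, Vil1, Krt8, Krt18, Krt19, Cdx2 and Lgr5 were detected on 8 of 8 arrays, and the probe for Epcam on the 4 TGF-beta arrays alone (5.48 to 6.07 with TGF-beta, against 4.73 to 5.03 untreated). The number of probes detected per array averaged 15572.5 ± 709 with TGF-beta and 16044.2 ± 668 untreated (SD, n = 4 each). The difference was -471.75, with an exact two-sided permutation p of 0.371, the smallest possible being 0.0286. At a stricter detection p under 0.01, the counts averaged 12929.8 ± 534 with TGF-beta and 13981.2 ± 588 untreated. Their difference was -1051.5 (same permutation test, p = 0.0571). These stricter counts were 13036, 12170, 13422 and 13091 in TGF-beta samples 1 to 4, against 14417, 14538, 13633 and 13337 untreated. Each was lower with TGF-beta than in the untreated sample of the same number. The part of this in the 163 losses was not tested. Among markers of fibroblasts and smooth muscle, 1 of 20 (Vim) was detected on all 8 arrays, and the summed intensity of that list was 5483 to 5732 with TGF-beta, against 5743 to 7116 untreated. Of immune markers 1 of 17 and of endothelial markers 1 of 12 were detected on all 8 arrays, of enteroendocrine markers 6 of 23, of tuft markers 2 of 17 and of stratified epithelium markers 3 of 16. The stratified list summed to 3151 to 6523 with TGF-beta, against 3004 to 3651 untreated. None of the 163 genes is in these lists, and the part of these cell types in the falls was not tested. In bulk RNA, fewer cells of a type and less RNA per cell cannot be told apart.

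The label of loss holds for the probe and not always for the gene. In 77 of the 163 genes, every probe on the array was undetected on at least 3 TGF-beta arrays, and 39 of these genes have a single probe. In 73 genes, another probe was detected on all 8 arrays, and in the remaining 13 another probe was detected on 2 or more TGF-beta arrays. A second probe that itself met the rule was present for 7 genes: Cers4, Bhlha15, Tnfrsf18, A2ml1, Rassf4, Msh3 and Snx5.

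Most of the member probes lay just above detection before treatment, whatever the level of a gene's other probes. Their untreated mean level had a median of 5.54 and a range of 5.16 to 6.81, while the median over all 11384 named probes detected on every untreated array was 7.45. The lowest detected signal on an array lay between 5.04 and 5.23. With TGF-beta the members' mean levels had a median of 4.98 and a range of 4.62 to 5.19. The untreated mean of the member probe was 6 or more for 14 genes and under 6 for 149. All 163 passed the filter on low values through the untreated arrays alone, so their falls had to follow.

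**Figure D1:**
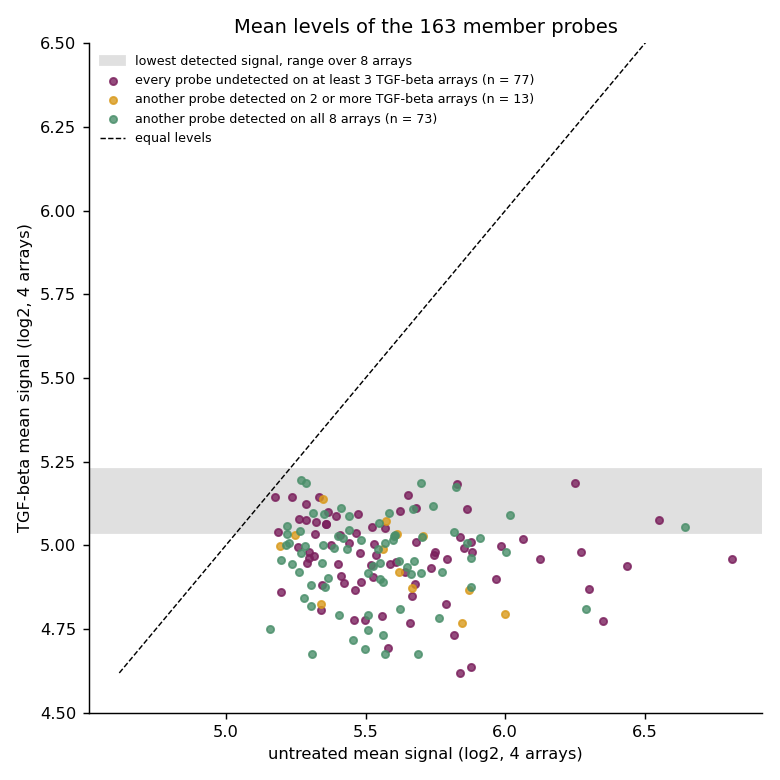
Mean log2 signal of the 163 member probes with TGF-beta (vertical axis) and untreated (horizontal axis), each point a gene and each mean over 4 arrays; colours give the fate of the gene's other probes (77, 13 and 73 genes), the grey band the lowest detected signal of the 8 arrays (5.04 to 5.23), the dashed line equal levels. The TGF-beta means lie within 4.62 to 5.19, while the untreated means reach 6.81.

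The difference of the 163 genes had a median of -0.58, with quartiles of -0.80 and -0.38 and a range of -1.85 to -0.03, beside a median of -0.04 over all 13513 tested probes with a single symbol. These sizes hold for background-corrected signals: without the correction the median of the 163 genes was -0.17. A fall of at least 1 on the log2 scale was seen in 21 genes, of at least 0.5 in 100, and of less than 0.5 in 63. The 4 TGF-beta values lay below all 4 untreated values in 85 genes and overlapped in 78. Over all tested named probes, 12% had TGF-beta values wholly below the untreated ones, and 8.98% were lower past the threshold of limma's test (adjusted p under 0.05), which 86 of the 163 genes passed. When same-numbered samples were treated as pairs, 16% of tested named probes and 108 of the 163 genes were lower past that threshold. Nothing is read from these counts, since the same contrast chose the genes.

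Detection was lost on all 4 TGF-beta arrays for 42 genes, and the other 121 kept detection on 1 TGF-beta array. That array was TGF-beta sample 1 for 34 genes, sample 2 for 12, sample 3 for 40 and sample 4 for 35. The same arrays detected 15632, 14554, 16108 and 15996 probes in all, so the arrays that kept fewer of the 163 genes were those that detected fewer probes. TGF-beta sample 2 was lowest in both.

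Among the roles assigned to the genes once the members were known, signals and receptors had the largest median fall. The rule held the members' TGF-beta means near the floor, within 4.62 to 5.19. The size of a fall thus depended mostly on the untreated level, and the order of roles does not rank their responses. Of 12 secreted signals, their modulators and receptors, 7 were lower by at least 1 on the log2 scale, and their median difference was -1.05. Fgf1, Smoc2, Sfrp5, Bmp3, Tnfrsf18, Prelp and Vwa2 were those 7.

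Smoc2 encodes a secreted calcium-binding matrix protein that is used as a marker of intestinal stem cells. Its levels were 4.92, 5.16, 5.38 and 4.84 in TGF-beta organoids 1 to 4, against 6.33, 7.14, 7.13 and 5.60 in untreated organoids 1 to 4. The groups did not overlap, untreated samples 2 and 3 were highest, and TGF-beta sample 3 alone kept detection. The difference was -1.47 ± 0.32 (SE, n = 4 each). Sfrp5 encodes a secreted protein that binds Wnt ligands. Its levels were 4.96, 4.65, 4.69 and 5.17 with TGF-beta, against 5.47, 7.02, 6.87 and 5.84 untreated. Untreated samples 2 and 3 again stood above samples 1 and 4, all 4 stood above every TGF-beta sample, and the difference was -1.43 ± 0.32.

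Fgf1, a fibroblast growth factor that binds all FGF receptors, had levels of 4.49, 5.15, 4.88 and 5.23 with TGF-beta, against 5.98, 7.15, 6.81 and 5.80 untreated. The groups did not overlap, the same untreated samples were highest, and the difference was -1.50 ± 0.30. Bmp3, a divergent member of the bone morphogenetic protein family that opposes other BMPs, measured 4.65, 4.67, 4.61 and 4.61 with TGF-beta, against 5.96, 6.04, 5.39 and 6.12 untreated. It was undetected on all 4 TGF-beta arrays, which lay within a narrow band, and was at least 1.68-fold lower with TGF-beta. This bound and those below take the lowest detected signal of each TGF-beta array in place of a lower one, and they hold for background-corrected signals alone. Without the correction the log2 difference of Bmp3 was -0.40.

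Vwa2, a secreted basement membrane protein with von Willebrand factor A domains, was also undetected on all 4 TGF-beta arrays and was at least 1.65-fold lower after background correction (log2 difference -0.34 without it), with levels of 4.77 ± 0.19 with TGF-beta and 5.85 ± 0.25 untreated (SD, n = 4 each). A second Vwa2 probe lay at 5.14 ± 0.09 with TGF-beta and 5.65 ± 0.25 untreated. Prelp, a leucine-rich proteoglycan of connective tissue and basement membrane, averaged 5.02 ± 0.20 with TGF-beta and 6.06 ± 0.40 untreated, without overlap. Tnfrsf18, the costimulatory receptor GITR, measured 5.48, 5.22, 4.97 and 5.08 with TGF-beta, against 6.88, 5.37, 6.01 and 6.74 untreated. Its groups overlapped, because untreated sample 2 lay below TGF-beta sample 1. Tnfrsf19, a Wnt-responsive receptor of the tumour necrosis factor family, differed by -0.76 at its member probe.

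**Figure D2:**
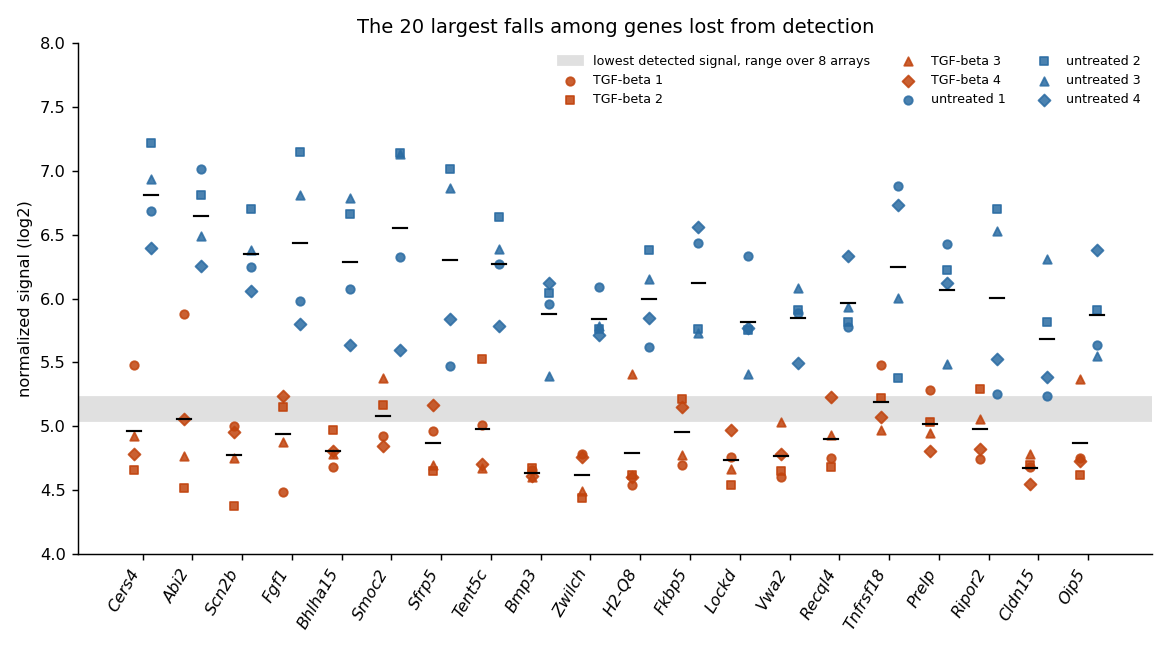
Log2 signal of the 20 genes with the largest falls, TGF-beta samples (red) left of untreated samples (blue); marker shapes give the sample number, black bars the mean of 4 samples, the grey band the lowest detected signal of the 8 arrays. The falls run from -1.85 for Cers4 to -1.005 for Oip5, and the groups overlap in Tnfrsf18 and Ripor2.

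Cers4, a ceramide synthase that joins fatty acids to sphingoid bases, had the most negative measured difference. Signals that end below detection limit the measurable fall, so the order among these genes is uncertain. It measured 5.48, 4.65, 4.93 and 4.78 in TGF-beta organoids 1 to 4, against 6.69, 7.22, 6.94 and 6.40 in untreated organoids 1 to 4. Only TGF-beta sample 1 kept detection and the groups did not overlap. The difference was -1.85 ± 0.22, and a second Cers4 probe met the same rule.

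Scn2b encodes an accessory beta subunit of voltage-gated sodium channels. It measured 5.003, 4.38, 4.75 and 4.96 with TGF-beta, against 6.25, 6.70, 6.38 and 6.06 untreated. No TGF-beta array detected it, and it was at least 2.33-fold lower with TGF-beta after background correction, with a log2 difference of -0.55 without it. Bhlha15, also known as Mist1, is a transcription factor of secretory cells and measured 4.68, 4.97, 4.78 and 4.81 with TGF-beta, against 6.08, 6.66, 6.79 and 5.63 untreated. It too was undetected on all 4 TGF-beta arrays and at least 2.24-fold lower after background correction, with a log2 difference of -0.50 without it. Another Bhlha15 probe stayed detected on all 8 arrays, at 5.79 ± 0.27 with TGF-beta and 6.87 ± 0.41 untreated.

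Abi2, an Abl-interacting subunit of the actin-regulating WAVE complex, averaged 5.05 ± 0.59 with TGF-beta and 6.64 ± 0.34 untreated, and TGF-beta sample 1 at 5.88 was the highest of its group. Another Abi2 probe stayed detected on all 8 arrays, at 6.03 ± 0.62 with TGF-beta and 6.88 ± 0.15 untreated. Tent5c, a noncanonical poly(A) polymerase, averaged 4.98 ± 0.40 with TGF-beta and 6.27 ± 0.36 untreated, and Fkbp5, an immunophilin co-chaperone of the glucocorticoid receptor, 4.96 ± 0.26 with TGF-beta and 6.12 ± 0.44 untreated. Neither gene's groups overlapped. Ripor2, an inhibitor of the small GTPase RhoA, differed by -1.02 at its member probe. Its groups overlapped there, since untreated sample 1 at 5.25 lay below TGF-beta sample 2 at 5.29. A Ripor2 probe detected on all 8 arrays lay at 5.51 ± 0.28 with TGF-beta and 6.11 ± 0.28 untreated.

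Cell division and DNA replication or repair was the role with the most members, 28. Their median difference was -0.69, against -0.58 for all 163 genes. Groups did not overlap in 19 of the 28, against 85 of the 163, 10 were undetected on all 4 TGF-beta arrays, against 42, and 3 were lower by at least 1, against 21. These counts describe the role and carry no test, since the same contrast chose the genes. Over all tested named probes, 12% had TGF-beta values wholly below the untreated ones. Zwilch, a subunit of the kinetochore complex that holds the spindle checkpoint, measured 4.78, 4.44, 4.49 and 4.76 with TGF-beta, against 6.09, 5.77, 5.79 and 5.72 untreated. It was undetected on every TGF-beta array and at least 1.64-fold lower after background correction, with a log2 difference of -0.41 without it. Recql4, a DNA helicase that acts in replication, measured 4.75, 4.68, 4.93 and 5.23 with TGF-beta, against 5.77, 5.82, 5.93 and 6.34 untreated. Oip5, which helps load the centromeric histone CENP-A, measured 4.75, 4.61, 5.37 and 4.73 with TGF-beta, against 5.63, 5.91, 5.55 and 6.38 untreated. At these probes neither gene's groups overlapped, and each kept detection on 1 TGF-beta array. A brighter Oip5 probe, detected on 2 or more TGF-beta arrays, lay at 5.49 ± 0.38 with TGF-beta and 6.77 ± 0.16 untreated.

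Lockd, a long noncoding RNA gene downstream of the cell cycle inhibitor gene Cdkn1b, was undetected on all 4 TGF-beta arrays and at least 1.61-fold lower after background correction (log2 difference -0.35 without it), with levels of 4.73 ± 0.18 with TGF-beta and 5.82 ± 0.38 untreated. Smaller falls were measured at the member probes of Tk1, the thymidine salvage kinase (-0.98), Knstrn, a spindle protein (-0.91), and Mcm4, a subunit of the replicative helicase (-0.89). Mybl2, a transcription factor of the S and G2 phases, differed by -0.71, Melk, a mitotic kinase, by -0.59, and Ercc6l, a helicase of anaphase DNA bridges, by -0.43. In DNA repair, Rad51ap1, a homologous recombination factor, differed by -0.67. The values were -0.50 for Brca2, a tumour suppressor of DNA break repair, -0.46 for Rpa2, a single-strand DNA binding subunit, and -0.37 for Tipin, a fork protection factor. At the member probes, Ercc6l and Tipin overlapped between groups, and the other named genes of this role did not. Brighter probes of Knstrn, Mybl2, Melk, Rad51ap1, Rpa2 and Tipin, detected on all 8 arrays, differed by -1.45, -1.16, -0.93, -0.74, -1.26 and -0.94. Other genes of this role went the other way. Probes of Kmt5a detected on all 8 arrays differed by 0.29, 0.06 and 0.30, against -0.82 at its member probe. The Brcc3 probe detected on all 8 arrays differed by 0.41, against -0.29 at its member probe. Over the 73 genes with such a probe, the brightest had a median of -0.49, against -0.57 for the member probes. Why the probes of a gene differ in size was not tested.

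These members are a small part of what the same pathways did on the array. Of 63 tested genes of a cell cycle and replication list, 51 were lower with TGF-beta past limma's adjusted p of 0.05, 0 were higher, and the median difference was -1.08, while 3 of them (Mcm4, Mybl2 and Melk) are among the 163 genes. Of 30 tested DNA repair genes, 18 were lower and 0 higher, with a median of -0.84 and 4 members. Of 32 stem cell and Wnt target genes, 14 were lower and 3 higher (20 lower and 6 higher with the sample numbers as pairs), with a median of -0.81 and 2 members (Smoc2 and Tnfrsf19). Amino acid, one-carbon and nucleotide genes were lower in 19 of 33 and higher in 1, with a median of -0.74 and 2 members (Cbs and Tk1). Over all 9062 tested genes, 9.88% were lower, 9.56% higher and the median was -0.05. With the sample numbers as pairs, 56 cell cycle, 22 DNA repair and 24 amino acid list genes were lower, and 0, 0 and 2 higher. Of all 13513 tested named probes, 2167 were then lower and 1891 higher.

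In the interferon and antigen presentation list, 2 of 34 tested genes were lower and 5 higher, with a median of 0.27, and with the sample numbers as pairs 2 were lower and 12 higher. Its members H2-Eb1, a class II chain (-0.38), and H2-DMa, which loads peptides onto class II (-0.57), were among the 163 genes. By role, 5 members belong to antigen presentation and interferon response, with a median difference of -0.57. H2-Q8, a nonclassical class I gene, measured 4.54, 4.62, 5.41 and 4.60 with TGF-beta, against 5.62, 6.38, 6.15 and 5.85 untreated. TGF-beta sample 3 stood above the other 3, and the groups did not overlap. A brighter H2-Q8 probe, detected on 2 or more TGF-beta arrays, lay at 5.43 ± 0.55 with TGF-beta and 6.37 ± 0.27 untreated. Class I genes of this locus are near-identical copies, so the source of the H2-Q8 and H2-Bl signals is uncertain. Growth factor receptors and ligands were lower in 3 and higher in 7 of 29 tested (6 and 8 with the sample numbers as pairs), with a median of 0.00, and Fgf1 was their single member. The remaining lists had none.

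Metabolism accounted for 10 members with a median of -0.70, and ribosome, tRNA and translation for 10 with a median of -0.67. Cbs, the enzyme that condenses homocysteine with serine, was undetected on all 4 TGF-beta arrays and at least 1.37-fold lower after background correction, with a log2 difference of -0.28 without it. Pus1, a pseudouridine synthase of tRNA, differed by -1.001. The other 98 genes fell into none of the groups and had a median of -0.55.

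**Figure D3:**
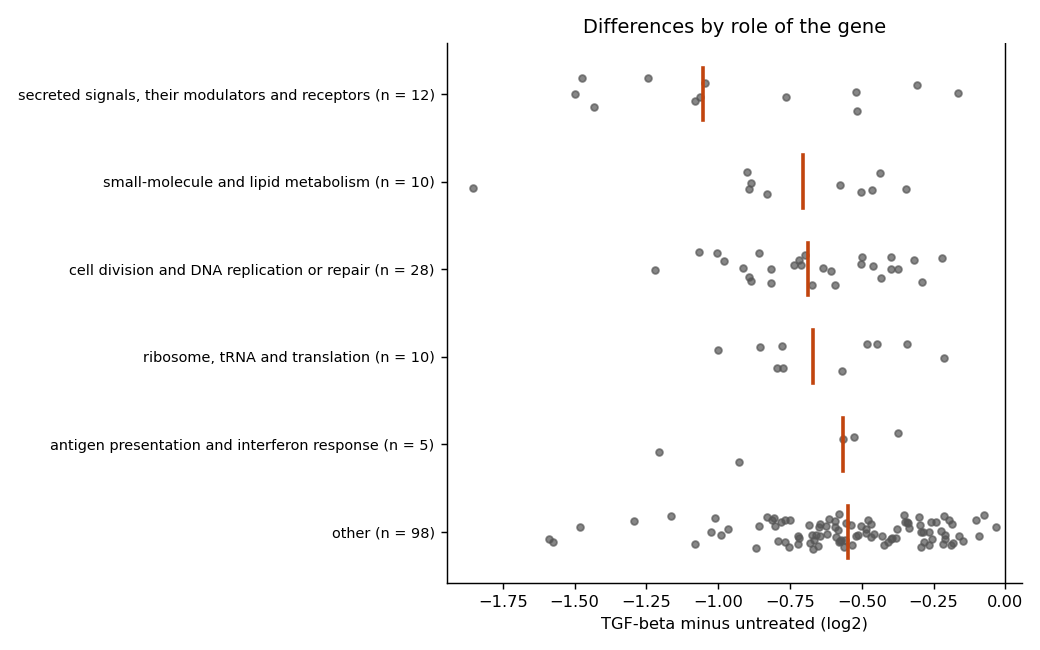
Difference of each of the 163 genes (TGF-beta minus untreated, log2) by role, the red bar being the median of the role. Medians are -1.05 for secreted signals and receptors, -0.70 for metabolism, -0.69 for cell division and DNA, -0.67 for ribosome and translation, -0.57 for antigen presentation and -0.55 for the rest.

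For the 73 genes with another probe detected on all 8 arrays, the brightest such probe was lower with TGF-beta in 57 and higher in 16, with a median of -0.49 against -0.57 for the member probes of those genes. Among these brightest probes the largest fall was in Cldn15, a claudin that forms paracellular cation pores. Its member probe was undetected on all 4 TGF-beta arrays at 4.68, 4.70, 4.78 and 4.54 with TGF-beta, against 5.24, 5.82, 6.31 and 5.38 untreated. Its brightest other probe measured 7.58, 7.69, 7.98 and 7.26 with TGF-beta, against 10.12, 9.80, 10.08 and 10.20 untreated, a difference of -2.42 ± 0.17. Another Cldn15 probe, also detected on all 8 arrays, differed by -2.51. The bright probes stayed far above detection in both groups, while the member probe was near the floor, so the sizes of their differences cannot be ranked.

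Tnfrsf19's other probe averaged 7.98 ± 0.78 with TGF-beta and 9.67 ± 0.20 untreated, a difference of -1.70. Tk1's averaged 7.61 ± 0.90 with TGF-beta and 9.28 ± 0.39 untreated, Mcm4's 10.59 ± 0.34 with TGF-beta and 11.69 ± 0.13 untreated and Ifitm1's, an interferon-induced membrane protein, 11.32 ± 0.60 with TGF-beta and 12.52 ± 0.39 untreated. These were lower with TGF-beta, as were their member probes. Others were nearly level: the bright probe of Rps19, a small-subunit ribosomal protein, averaged 13.88 ± 0.11 with TGF-beta and 13.95 ± 0.08 untreated, and that of Rtraf, an RNA transcription and export factor, 12.46 ± 0.08 with TGF-beta and 12.54 ± 0.06 untreated, although their member probes differed by -0.48 and -0.28. Hmgn2, a nucleosome-binding protein, had a bright probe at 11.11 ± 0.83 with TGF-beta and 11.79 ± 0.79 untreated, where samples 2 and 3 of both groups exceeded samples 1 and 4. The opposite end was Capn2, the large subunit of a calcium-dependent protease, named after its values were seen. Its bright probe averaged 8.97 ± 0.25 with TGF-beta and 6.94 ± 0.37 untreated, a difference of 2.02, while its member probe differed by -0.59.

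**Figure D4:**
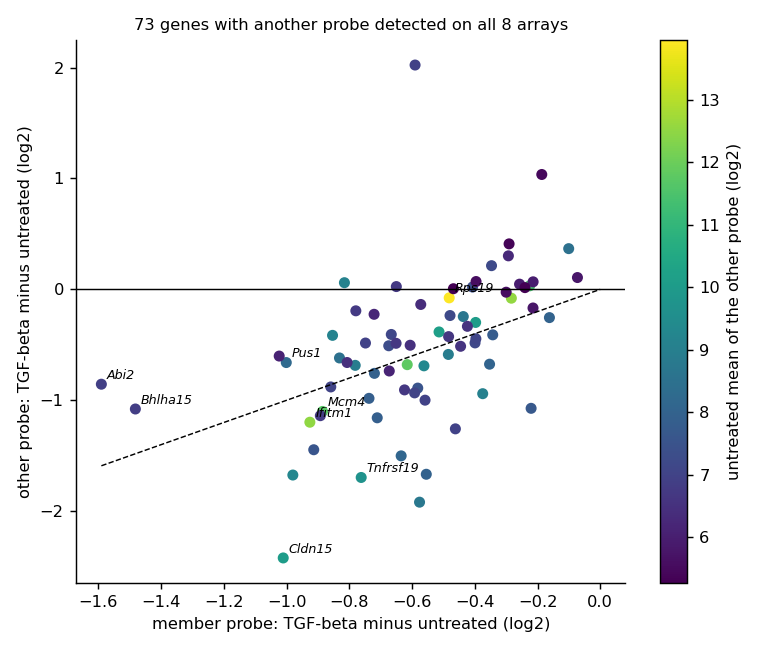
Difference (TGF-beta minus untreated, log2) at the brightest other probe detected on all 8 arrays against that at the member probe, for 73 genes; colour gives the untreated mean of the other probe and the dashed line equal differences. Of these other probes 57 lie below 0 and 16 above, from Cldn15 at -2.42 to Capn2 at 2.02.

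Promoters of the members were read from RefSeq (GRCm38.p6), which held 127 of the 163 genes, as 250 bases before to 50 after the start of the first listed transcript. The promoters of 4 genes are shown as examples of large falls or of cell division genes that carry cell cycle motifs. Other members also meet this description, among them Bhlha15, Tnfrsf18, Ckap2l, Brca2 and Rpa2, and are not shown. Capitals mark TTCCCGC (the core of an E2F site), TTTGAA (the cell cycle homology region element) and CCAAT, on either strand. They lie at chr19:42202203-42202502, minus strand (Sfrp5), chr6:134928842-134929141, plus strand (Lockd), chr2:119618456-119618755, minus strand (Oip5) and chr6:126939538-126939837, minus strand (Rad51ap1).
Sfrp5: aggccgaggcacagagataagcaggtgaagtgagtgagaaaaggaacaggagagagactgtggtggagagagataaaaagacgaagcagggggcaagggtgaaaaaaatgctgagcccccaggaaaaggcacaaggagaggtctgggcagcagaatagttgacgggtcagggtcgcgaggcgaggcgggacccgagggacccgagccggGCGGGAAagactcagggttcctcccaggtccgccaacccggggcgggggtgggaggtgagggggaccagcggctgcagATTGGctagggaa
Lockd: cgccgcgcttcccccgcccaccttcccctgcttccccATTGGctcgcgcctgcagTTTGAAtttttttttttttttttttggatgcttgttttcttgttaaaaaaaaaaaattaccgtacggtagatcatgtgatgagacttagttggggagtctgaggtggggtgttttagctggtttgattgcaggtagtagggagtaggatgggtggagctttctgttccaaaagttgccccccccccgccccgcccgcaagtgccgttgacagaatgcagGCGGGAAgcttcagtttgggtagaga
Oip5: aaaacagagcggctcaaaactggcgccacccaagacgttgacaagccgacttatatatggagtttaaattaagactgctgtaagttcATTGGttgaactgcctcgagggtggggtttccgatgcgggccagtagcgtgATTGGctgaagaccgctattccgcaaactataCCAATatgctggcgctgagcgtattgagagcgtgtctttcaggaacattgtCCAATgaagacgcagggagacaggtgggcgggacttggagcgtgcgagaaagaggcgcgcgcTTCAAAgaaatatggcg
Rad51ap1: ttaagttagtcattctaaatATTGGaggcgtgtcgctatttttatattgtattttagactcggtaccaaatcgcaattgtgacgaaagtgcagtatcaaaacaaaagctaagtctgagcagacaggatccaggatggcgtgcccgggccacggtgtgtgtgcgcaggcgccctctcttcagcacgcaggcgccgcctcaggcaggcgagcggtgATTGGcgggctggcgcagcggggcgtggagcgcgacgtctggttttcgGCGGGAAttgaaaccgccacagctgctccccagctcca

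TTCCCGC was in 20 of 127 member promoters (15.7%), in 8.76% of 6458 promoters of genes detected on every untreated array, and in 4.66% of all 27025 promoters. Among cell division members it was in 6 of 20. TTTGAA was in 9.45% of member promoters, 11.8% of those detected untreated and 18.1% of all. CCAAT was in 37.8%, 39.5% and 37.9%. The Smad box CAGAC was in 48.0%, 46.9% and 49.7%, and the core of the TGF-beta inhibitory element, TTGGTGA, in 2.36%, 3.33% and 3.98%. Shares of 6 further motifs on both strands in members and in promoters detected untreated were 1.57% and 2.60% for ATCAAAG (TCF), 5.51% and 3.55% for CAAAGTC (HNF4), 2.36% and 3.86% for GTTAAT (HNF1), 2.36% and 1.42% for AGATAAG (intestinal zinc finger factors), 6.30% and 6.78% for TTTAT, any base and G (CDX), and 8.66% and 10.8% for CACGTG (E-box). The TCF and HNF4 motifs share the letters CAAAG and can overlap. A match is a run of letters and not a shown binding site.

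The rule did not use the sample numbers, but it asked for the same detection state on most arrays of a group, which keeps out probes that vary strongly among samples. The shares of genes that differ among numbers 1 to 4 are therefore given as a description, and nothing is read from their being low. A difference among numbers passed limma's F test (adjusted p under 0.05, group in the model) for 2 of the 163 genes, 1.23%, beside 8.07% of all tested named probes. At an unadjusted p under 0.05 it was 17 genes (10.4%) beside 24.7%. The 2 genes were Ercc6l (limma, adjusted p = 0.046), with means over both groups of 5.79, 4.87, 5.004 and 5.23 for numbers 1 to 4, and Knstrn (adjusted p = 0.0496), with 5.92, 5.04, 5.41 and 5.30. Both were highest in number 1. Neither call held under 5 of the 6 other ways of processing the arrays, and 1 of them held with cyclic loess normalization.

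The order of the untreated samples was described by counts. Untreated samples 2 and 3 were both above samples 1 and 4 in 38 genes (23.3%, beside 26.3% of tested named probes), among them Smoc2, Sfrp5, Fgf1, Bhlha15 and Ripor2. The opposite order was seen in 32 genes (19.6%, beside 30.1%), among them Tnfrsf18 and Fkbp5. Within a number, the median difference of the 163 genes was -0.65, -0.60, -0.57 and -0.58 for numbers 1 to 4.

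At the edge of the rule, the third-highest detection p among the 4 TGF-beta arrays decided. Just inside lay Gm15142 at 0.0502 with a difference of -0.29, Ercc6l at 0.0513 with -0.43 and Olfr1198 at 0.0513 with -0.19. Just outside, at 0.0491, lay Ltb4r1 with -0.82, Gnaz with -0.74 and Gm14207 with -0.64. The genes just outside were lower by more than those just inside, but nothing is read from this. Genes with equal detection p were taken by highest untreated signal outside the rule and by name inside it. By chromosome, 17 held the highest share of members, 14 of 410 genes detected untreated (3.41%), the H2 genes among them. Chromosomes 19 and X (2.93% each) and 6 (2.89%) came next, beside 2.08 per 100 over all. The differences among chromosomes were not tested.

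The mirrored rule, undetected on at least 3 untreated arrays and detected on all 4 TGF-beta arrays, gave 129 genes, against the 163 lost ones.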

How the data were processed

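For each of 45281 probes and each of 8 arrays, the deposited scanner table holds an intensity before normalization beside its detection p-value, per the file headers. The authors' processed value table was deposited on a log2 scale, judged from its values, with no stated method. The scanner software is not named. All columns of values were used.

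Intensities were background corrected with normexp from the detection p-values (offset 16), quantile normalized and log2 transformed (limma 3.58.1, R 4.3.3). Probes detected on at least 4 of 8 arrays were fitted with lmFit and eBayes, group alone, with Benjamini-Hochberg adjustment over them. The platform annotation gives 34885 probes 1 symbol, 18 several and 10378 none, and 34807 matched a RefSeq gene table. The number of arrays limits the precision.

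Members, lists, roles and tests were chosen with earlier results of these data known. The named genes are the 20 largest falls, list members, the genes that differ among sample numbers, the genes at the edge of the rule, and the 5 with the brightest second probe. The genes named outside this rule (Pus1, A2ml1, Rassf4, Msh3, Snx5, H2-Bl and Capn2) were picked once their values were known. The sample numbers pair the samples: for samples with the same number, departures from the group mean had correlations of 0.534, 0.513, 0.515 and 0.555, and 8 of 8 arrays matched their own number best. The labels tie the numbers to nothing. The fitting code was tested on simulated data. Alternatives were background correction, normalization, detection filter, variance model, the authors' table, pairing and leaving out each sample.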

Additional observations from a re-analysis of the deposited data

Results flagged for a closer look

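In 4 of 84 groups of 4 values, 1 sample stood apart by Dixon's ratio, its gap to the nearest value divided by the range of the group, exceeding the tabulated critical value. Chance puts about 1 in 20 such groups past it. H2-Q8 in TGF-beta sample 3 lay at 5.41 on the log2 scale with the nearest value at 4.62 (ratio 0.912). Melk in TGF-beta sample 1 lay at 4.74, below the nearest at 4.96 (ratio 0.935). Gm15142 in TGF-beta sample 2 lay at 4.86, below the nearest at 5.08 (ratio 0.839). Olfr1198 in untreated sample 4 lay at 5.62, above the nearest at 5.25 (ratio 0.929).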

How the results depend on the processing

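For the 40 named genes the selection fixed the direction, so their 520 alternative values, all lower with TGF-beta, show no stability, and 74 of them moved by over 1 SD. The size of the falls depended on the background correction: the median difference of -0.58 became -0.17 without it and -0.175 in the authors' table, was -0.64 with median scaling, and ranged from -0.62 to -0.56 on leaving out samples (-0.62 without untreated sample 4). Members lower past the threshold numbered 45 both without background correction and in the authors' table, against 86, and 57 to 69 on leaving out samples (57 without untreated replicate 1). With the replicate block, calls over all named probes numbered 4058 (2167 lower, 1891 higher), against 2455 (1214 and 1241) without it. Median scaling moved the median of all probes to -0.17 and the higher calls to 711, 35.3% of calls against 50.5%. Leaving out samples gave 769 to 1086 lower calls, the lowest without untreated replicate 1. The number of genes meeting the rule, 163, became 253 at a detection p of 0.01 (64 shared), 44 when undetected on all 4 TGF-beta arrays, 59 when detected at 0.01 untreated, and 83 when the gene's brightest probe had to meet it. It was 214 to 330 on leaving out a sample, above 1.5 times without TGF-beta samples 1 (279), 3 (325) or 4 (330) or untreated samples 3 (254) or 4 (306), since fewer arrays must then fulfil the rule. Chosen after seeing the data, a fall of at least 1 left 21 genes, of at least 0.5 left 100, and leaving out number 2 from both groups gave 303. The mirrored count was 129, and 108 at 0.01, 69 for all 4 arrays and 332 less number 2. Probes that differed among sample numbers were 1091, and 1719 both without background correction and in the authors' table, 604 without the detection filter and 1917 with trended robust variances. Members among them were 2, and 0 in each of these 4 settings and 1 with cyclic loess. At 3 median scaling gave different genes (0 shared).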
